A study of Mus musculus with 54 samples.

Results

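Cohesin sites without CTCF were sought in mouse embryonic stem cells (ESCs) by chromatin immunoprecipitation and sequencing (ChIP-seq). They were the regions with a peak of the cohesin subunit Smc3 in both libraries of WT rescue ESCs that overlapped, by at least 1 bp, no peak in any of the 8 CTCF libraries of ESCs. Merging overlapping peaks of both Smc3 libraries gave 18380 regions, of which 7642 were called in both. Of these 7642 sites, 72 (0.942%) had no ESC CTCF peak and 7570 had at least 1, and the 7570 are called CTCF-occupied sites below. The 72 sites were numbered S1 to S72 from the highest to the lowest rank of Smc3 fold enrichment in WT ESCs.

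Cohesin is a ring of the subunits Smc1, Smc3 and Rad21 that holds sister chromatids together and extrudes chromatin loops. Loop extrusion tends to halt where the zinc finger protein CTCF is bound to its motif in the right orientation, so most cohesin peaks in mammalian cells lie on CTCF sites. Cohesin is loaded along active genes, and it is known from work in other mammalian cells that it can gather near the 3′ ends of active genes, most visibly when CTCF and the release factor Wapl are removed.

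The mouse ESC line E14 was studied as ESCs and as neural progenitor cells (NPCs) after 2 days of differentiation. In the ΔZF1 and WT rescue lines both endogenous Ctcf alleles carried a degron and a green fluorescent tag, the F-box protein OsTir1 was expressed from Rosa26, an mCherry reporter sat at Mnx1, and a doxycycline-inducible transgene in the Tigre locus expressed Flag-Halo-tagged CTCF without zinc finger 1 (ΔZF1) or wild-type CTCF (WT). Both kinds of rescue cell received 1 µM 5-Ph-IAA, which triggers degradation of the endogenous protein, and 1 µg/mL doxycycline for 24 h. The WT rescue cells therefore also lacked endogenous CTCF. Per the study's methods, all edited lines were clones derived from single cells. Each rescue genotype was a single clone, so genotype and clone cannot be told apart. The PodxlpA and Grb10pA lines carried an eGFP reporter inserted with an SV40 polyadenylation site, so that the Podxl or Grb10 RNA is cut short. These lines and unmodified E14 cells were assayed as NPCs and had no degron. CTCF was mapped in 4 libraries and Smc3 and Rad21 in 2 libraries of each rescue group (ESC ΔZF1, ESC WT, NPC ΔZF1, NPC WT), and CTCF and Smc3 in 2 libraries each of PodxlpA, Grb10pA and E14 NPCs. The study describes the ChIP-seq libraries as biological replicates, and the labels do not say whether replicates were separate cultures. A p-value therefore measures only the spread between these libraries, which may be technical.

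The libraries differed in depth and length of list. Replicate 1 of the ESC CTCF libraries held 43003 to 45941 peaks, replicates 2 and 3 held 15779 to 23184 and replicate 4 held 11189 to 16413. Rad21 libraries held 1306 to 10415 peaks, rescue Smc3 libraries 8169 to 34104, and Smc3 libraries of the PodxlpA, Grb10pA and E14 lines 10005 to 15626. The background coverage, a measure of depth, was 2.051 to 3.508 fragments per bp in the rescue Smc3 libraries and 0.276 to 0.547 in the other Smc3 libraries. A site counts as called in a library where a peak of that library overlaps it by at least 1 bp. Fold enrichment is the ratio of ChIP pileup to local background at a peak's summit, with 1 added to each.

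The sequence under the sites set some of them apart. A match to the 12-base CTCF consensus with up to 2 mismatches lay within 50 bp of the Smc3 summit at 20 of the 72 sites (27.78%), against 93.45% of the CTCF-occupied sites and 92.8% of all 7642. In windows 1000 bp away the shares were 11.11% and 9.5%. At 10 of the 20 the match had 0 or 1 mismatches, and all 10 lay over 1 kb from both a transcription start site (TSS) and a gene 3′ end. These 10 sequences are shown because 8 of the 10 sites had a CTCF peak in the NPC lines without a degron, as described further on. They are from the RefSeq GRCm38 (mm10) genome, 42 bases each, on the strand of the match, with the 12 bases of the match in capitals.
S3 (chr1:176658825-176658866, minus strand): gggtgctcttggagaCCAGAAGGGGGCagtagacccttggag
S4 (chr4:57021457-57021498, plus strand): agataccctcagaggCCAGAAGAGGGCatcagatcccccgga
S6 (chr6:108441474-108441515, plus strand): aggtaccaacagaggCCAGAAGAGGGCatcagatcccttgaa
S8 (chrX:145672958-145672999, minus strand): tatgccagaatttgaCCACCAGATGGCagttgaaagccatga
S9 (chr1:171118398-171118439, plus strand): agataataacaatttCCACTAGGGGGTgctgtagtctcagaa
S10 (chr6:59498236-59498277, plus strand): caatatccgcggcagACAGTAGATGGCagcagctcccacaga
S13 (chr3:126403025-126403066, minus strand): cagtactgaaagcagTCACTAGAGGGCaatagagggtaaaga
S20 (chr3:118991497-118991538, minus strand): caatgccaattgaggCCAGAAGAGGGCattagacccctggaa
S27 (chr9:54199001-54199042, plus strand): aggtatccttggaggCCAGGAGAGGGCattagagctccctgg
S31 (chr4:125486729-125486770, plus strand): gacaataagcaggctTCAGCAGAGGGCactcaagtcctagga

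S8 matched the consensus with 0 mismatches and the other 9 with 1. Several of the sequences resembled each other beyond the motif. S4 and S6, on chromosomes 4 and 6, were identical at 36 of 42 bases, S6 and S20 at 33 and S4 and S27 at 32, whereas S9 and S10 shared 13. S4, S6 and S20 held the same 12-base core, and this core lay at 481 CTCF-occupied sites (6.35%), which were called by a median of 5 of 8 ESC CTCF libraries. Of those 481 sites, 79.21% lay in windows over 40% repeat-masked. At the 10 sites the median repeat-masked share was 31.84%, against 0% over all 72.

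Sites without such a match are represented by 3 windows centred on the Smc3 summit, plus strand, with the 12 bases closest to the CTCF consensus in capitals. S1 had the highest Smc3 rank of all 72, S23 was called in all 20 other cohesin libraries, and S43 lay in a histone gene.
S1 (chr4:140259061-140259161): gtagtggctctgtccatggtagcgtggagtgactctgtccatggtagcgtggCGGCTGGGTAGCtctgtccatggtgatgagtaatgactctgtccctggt
S23 (chr19:5795098-5795198): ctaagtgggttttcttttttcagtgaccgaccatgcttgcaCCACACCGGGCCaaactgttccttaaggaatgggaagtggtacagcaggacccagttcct
S43 (chr13:23764054-23764154): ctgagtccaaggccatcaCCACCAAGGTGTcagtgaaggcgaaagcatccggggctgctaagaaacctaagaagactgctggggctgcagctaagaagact
The closest match had 4 mismatches at S1, 4 at S23 and 3 at S43. The window of S1 held the string ctctgtccatgg 3 times.

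The label was compared with the CTCF data, which chose the sites and carry no test here. The 72 sites lay at a median of 4054.5 bp from the nearest ESC CTCF summit, against 3 bp for the CTCF-occupied sites. Just inside the rule, S29 lay 400 bp, S49 414 bp and S48 434 bp from such a summit. Just outside it were 90 sites with a CTCF peak in only 1 of 8 libraries, in WT replicate 1 at 64 of them and in ΔZF1 replicate 1 at 21. The 3 of these closest in Smc3 rank to the middle of the 72 lay near Btbd11 (chr10:85584898-85585073), at Rnu12 (chr15:83149656-83150080) and near Usp6nl (chr2:6403471-6403780), and other cohesin libraries called them 3, 12 and 7 times of 20. The CTCF motif lay at 73.33% of the 90 sites, at 90.83% of the 229 sites with CTCF in 2 libraries and at 93.78% of the 2558 sites with CTCF in all 8. The number of sites without CTCF rested on the longest CTCF lists, since 284 sites had no CTCF peak when replicate 1 of both genotypes was left out.

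**Figure D1:**
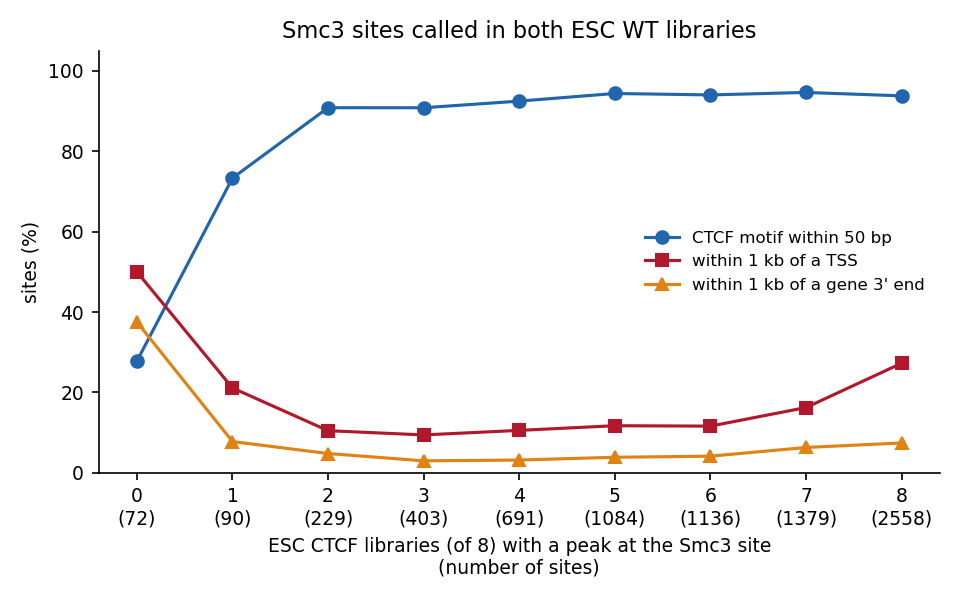
Share of Smc3 sites called in both ESC WT libraries (vertical axis, %) with a CTCF motif, a TSS within 1 kb or a gene 3′ end within 1 kb, by the number of ESC CTCF libraries with a peak there (horizontal axis, number of sites in brackets). The sites with 0 CTCF libraries have the lowest motif share, 27.78%, and the highest TSS and 3′ end shares, 50% and 37.5%.

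Most of the 72 sites were weak. Their mean percentile of Smc3 fold enrichment within the WT ESC lists had a median of 11.37 (0.01 to 95.06), against 63.44 for the CTCF-occupied sites, and their median width was 307 bp against 301 bp. Of the 10 strongest sites 9 lay over 1 kb from a TSS. S1 (chr4:140258966-140259307), at −12327 bp from the TSS of Igsf21, an immunoglobulin superfamily gene, had 16.9- and 10.9-fold Smc3 enrichment in the WT ESC libraries. S2 (chr4:23855656-23855875) had 14.1- and 13.8-fold, lay 78167 bp from the TSS of the lincRNA Gm28448, and its window was 100% repeat-masked. S7 lay in an intron of Ptprd, a receptor tyrosine phosphatase gene, at 10.4- and 5.77-fold. S4, S6 and S9 lay in introns of Epb41l4b, Itpr1 and Cfap126. S5 was the one within 1 kb of a TSS, at −223 bp from that of the microRNA gene Gm47311 and 104 bp past the 3′ end of Hist2h2aa2. The weakest were S70 and S72 on the mitochondrial chromosome, with 2.72- and 2.24-fold at S70 and 1.79- and 1.27-fold at S72, and S71, at −22 bp from the TSS of Acsf3. The CTCF-occupied sites included 0 on the mitochondrial chromosome, but no CTCF list held any mitochondrial peak, so the rule could not leave S70 and S72 out. The Smc3 lists of the PodxlpA, Grb10pA and E14 lines held no mitochondrial peak either.

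Many of the sites lay at the start of a gene or at its end. The summit was within 1 kb of a TSS at 36 of 72 sites (50%, 95% Wilson interval 38.75 to 61.25), against 17.62% of the CTCF-occupied sites and 17.9% of all 7642. The share was 26.58% of the 538 sites found without Smc3 WT replicate 2 and 24.3% of the 284 found without CTCF replicate 1. It was within 1 kb of the 3′ end of a protein-coding or lincRNA gene at 27 sites (37.5%, 27.22 to 49.05), against 5.52% and 5.82%, a comparison chosen after values had been seen. Both held at 18 sites (25%), against 1.32% of the CTCF-occupied sites, and 27 sites (10 with the CTCF motif and 17 without) had neither. The intervals cover counting error only. Of the 27 summits near a 3′ end, 19 lay past the nearest end and 8 before it, at a median of 257 bp past it (−655 to 816 bp). By annotation 31 of the 72 summits were intergenic, 13 in introns, 13 in untranslated regions, 10 in coding exons and 5 in exons of noncoding transcripts.

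The genes at these 3′ ends had varied functions, and the examples here were chosen after values had been seen. S11 (chr7:45456514-45457838) lay 635 bp past the end of Gys1, a glycogen synthase gene, and 690 bp past that of Ftl1, the ferritin light chain. S30 (chr11:48806559-48807461) lay 586 bp past Rack1, a ribosome-associated scaffold protein, S58 507 bp past Rps18 and S47 309 bp past Rpl31, both ribosomal proteins. S15 lay 176 bp past Slc2a3, a glucose transporter, S25 330 bp past Hnrnpa3, an RNA-binding protein, S38 718 bp past H2afz, a histone variant, S56 612 bp past Tmsb10, an actin-binding thymosin, and S66 257 bp past Ccnd3, a D-type cyclin. Some of these summits were also within 1 kb of the TSS of a neighbouring gene. S58 lay at −4 bp from the TSS of B3galt4, S47 at 213 bp from that of Tbc1d8 and S38 at −35 bp from that of Dnajb14. S11 lay 943 bp from the TSS of the microRNA gene Gm22133. In all, 3 of 72 sites (4.17%) lay within 1 kb of a ribosomal protein gene (Rack1 included), against 0.13% of the CTCF-occupied sites.

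Replication-dependent histone genes, whose RNAs end in a stem-loop and not in a poly(A) tail, were the most frequent of 3 gene classes counted. They lay within 1 kb of 9 sites (12.5%), against 6 of the 7570 CTCF-occupied sites (0.08%). These were S17 at Hist1h2bg, S18 at Hist1h1d, S29 at Hist1h4b, S41 at Hist1h1e and Hist1h2be, S43 at Hist1h1a and S45 at Hist1h4i on chromosome 13, and S5 at Hist2h2aa2, S16 at Hist2h2bb and S49 at Hist2h4 on chromosome 3. The histone clusters also held 2 of the 3 places where sites lay within 12 kb of each other, S29 with S43 (chr13:23757272-23764659) and S49 with S16 (chr3:96262977-96270260). The class was noticed in these data, and its counts are a description.

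The third such place was Lncenc1, a long noncoding RNA gene active in ESCs, with S14, S28 and S59 (chr13:97491746-97499515). S14 lay in an intron, S28 in an exon and S59 2230 bp past the 3′ end. Other noncoding RNA genes were close as well. S23 (chr19:5794575-5795575) lay 542 bp past the end of Malat1, an abundant nuclear RNA, S22 at the small nuclear RNA gene Gm24830, S64 within 1 kb of Snord65, S69 162 bp from the TSS of Snord118, a small nucleolar RNA gene, and S24 within 10 kb of Gas5, a host gene of small nucleolar RNAs. Small noncoding RNA genes, counted without microRNA and mitochondrial genes, lay within 1 kb of 4.17% of the 72 sites, against 0.44% of the CTCF-occupied sites. Of the 25 annotated genes on a list of long noncoding RNA genes, Malat1 and Gas5 were the 2 with a site within 10 kb. By site, 2.78% of the 72 lay within 10 kb of a gene on this list, against 0.16% of the CTCF-occupied sites.

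Genes on the pluripotency and lineage lists were near few sites of either kind. Of 38 pluripotency genes only Fgf4, a growth factor of the early embryo, had one of the 72 sites within 10 kb, S52 (chr7:144865982-144866442), which lay 798 bp past its 3′ end. By site, 1.39% of the 72 lay within 10 kb of a pluripotency gene, against 0.22% of the CTCF-occupied sites. No site lay within 10 kb of any of the 27 neural progenitor, 19 mesoderm and endoderm, 18 housekeeping, 28 immediate early and 28 2i and LIF pathway genes or of the 25 annotated cohesin and architectural genes, against 0.12% to 0.28% of the CTCF-occupied sites per list. A count of 0 of 72 sites allows a share of up to 4.17%, taken as 3 counts of 72, so that shares of this size could not be told from 0.

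**Figure D2:**
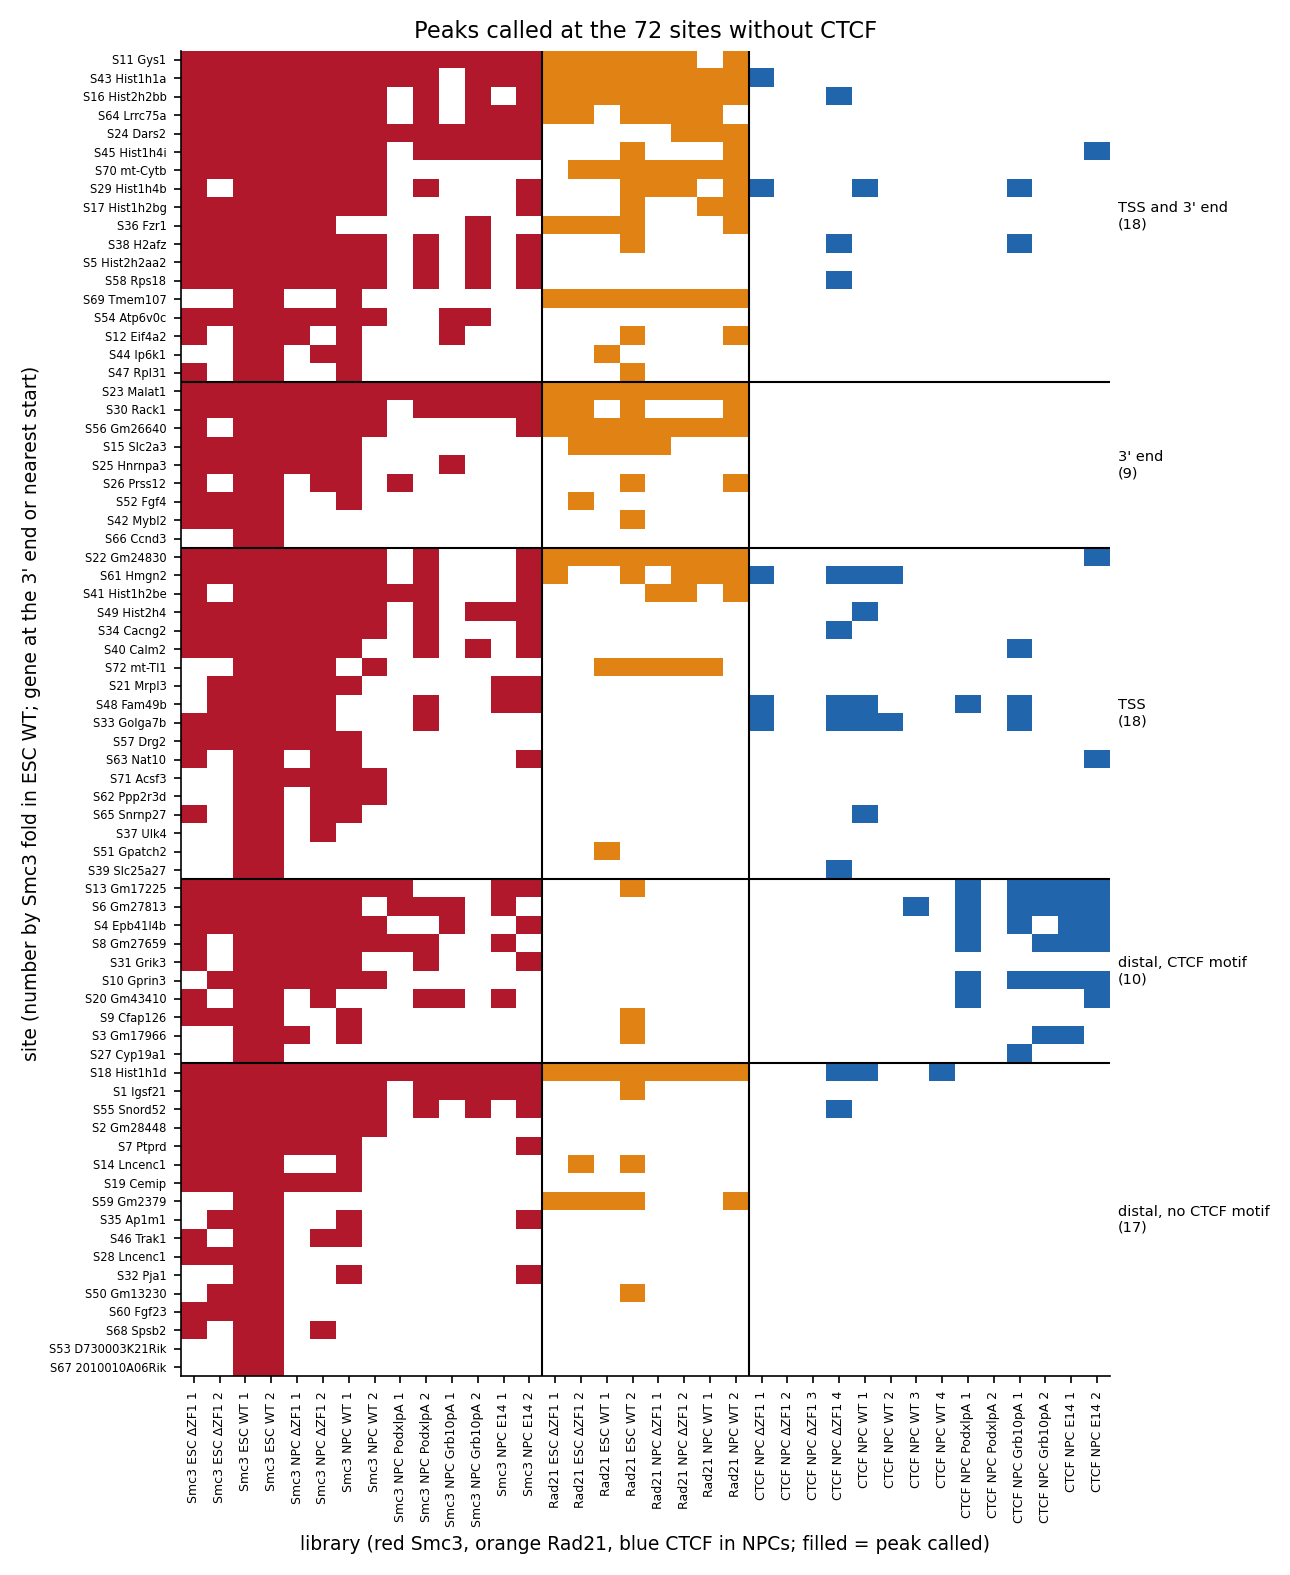
Peaks called at each of the 72 sites (lines, grouped by position and motif, with the number of sites in brackets) in each Smc3, Rad21 and NPC CTCF library (columns, with the replicate number). The ESC WT columns of Smc3 are full because they chose the sites, S18 and S23 are filled in all other Smc3 and Rad21 columns, and CTCF peaks in the PodxlpA, Grb10pA and E14 columns gather among the 10 distal sites with a CTCF motif.

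The next question was whether these sites were also called in Smc3 libraries that had not chosen them. In ESC ΔZF1, 72.22% and 61.11% of the 72 sites were called in replicates 1 and 2, where 97.4% and 86% of all 7642 sites were. In NPC ΔZF1, 62.5% and 72.22% were called (98.2% and 97.7% of all sites), and in NPC WT 75% and 44.44% (98.9% and 85.4%). In the lines without a degron, 13.89% and 37.5% were called in PodxlpA (65.7% and 72.7% of all sites), 18.06% and 25% in Grb10pA (76.7% and 66%) and 22.22% and 44.44% in E14 (83.8% and 80.1%). The 72 sites were called less often than the CTCF-occupied sites in 12 of 12 libraries, with a mean difference of −38.7 percentage points (± 13.25, SD, n = 12, from −62.12 to −24.17, two-sided exact sign-flip permutation test over libraries, p = 0.000488, the smallest this design can give). The 12 differences rest on the same sites, and libraries of a group share a line, so they are not fully independent. The same holds for the Rad21 test below. When the CTCF-occupied sites were weighted to the strength of the 72 sites in WT ESCs, in 4 bins, the difference was −24.99 points (exact permutation p = 0.000488). The strongest bin held 18 of the 72 sites and 6422 of the CTCF-occupied sites, so the matching was coarse. Without weighting, the difference was −29.64 points in the 6 rescue libraries and −47.77 in the 6 others. Each had an exact permutation p of 0.0312, the smallest for 6 libraries.

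Both libraries of a group called 39 of the 72 sites in ESC ΔZF1 (85.2% of all 7642 sites), 43 in NPC ΔZF1 (96.9%) and 31 in NPC WT (85.3%). Both called 8 in PodxlpA (53.8%), 8 in Grb10pA (56.8%) and 13 in E14 (71.7%). Of the 72 sites, 11 had no Smc3 peak in any of the 10 NPC libraries, against 0.301% of all 7642 sites. These were S27, S28, S39, S42, S50, S51, S53, S59, S60, S66 and S67, and S28, in Lncenc1, S42, 409 bp past Mybl2, a transcription factor of the cell cycle, and S60, in the untranslated region of Tigar, were nevertheless called in both ESC ΔZF1 libraries. The neighbouring ESC-chosen sites S14 and S59 at Lncenc1 were called in 1 and 0 NPC libraries. Of the 72, only S11, S18, S23 and S24 were called in all 10, a count that was not made for all 7642 sites.

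**Figure D3:**
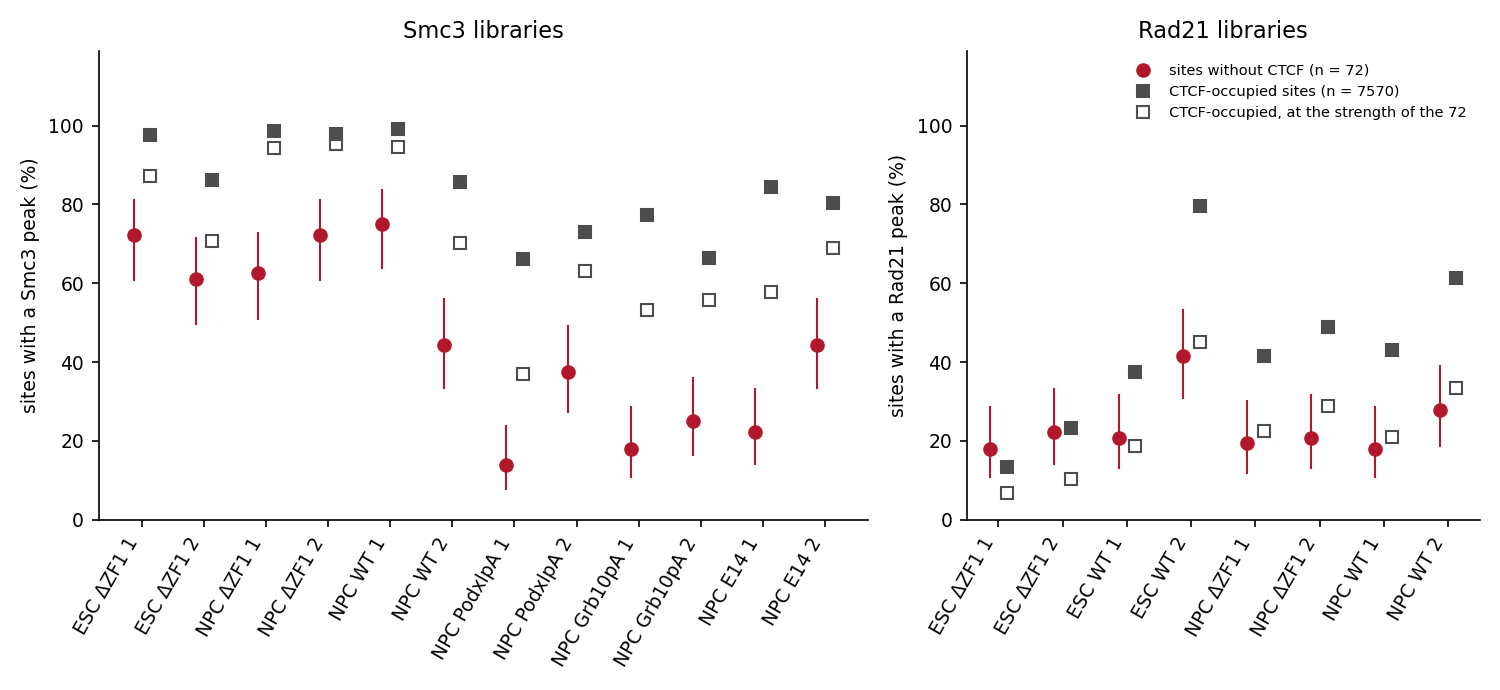
Share of sites (vertical axis, %) with an Smc3 peak (left) or a Rad21 peak (right) in each library the rule did not use, for the 72 sites without CTCF (circles, with 95% Wilson intervals), the 7570 CTCF-occupied sites (filled squares) and the same sites weighted to the strength of the 72 (open squares). The circles lie below the filled squares in 12 of 12 Smc3 libraries and 7 of 8 Rad21 libraries, and for Rad21 the circles lie above the open squares in both ESC ΔZF1 libraries and below them in all 4 NPC libraries.

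The histone sites were among those called most widely. S18 (chr13:23555166-23556199), in the coding exon of the linker histone gene Hist1h1d, was called in all 20 other cohesin libraries. Its Smc3 fold enrichment was 12.2 and 9.43 in ESC ΔZF1 against 7.10 and 4.95 in ESC WT, and 17.0 and 14.9 in NPC ΔZF1 against 18.7 and 9.29 in NPC WT. It was 4.52 and 8.68 in PodxlpA and 7.36 and 7.26 in Grb10pA, against 5.31 and 18.7 in E14. Both ESC ΔZF1 values lay above both ESC WT values, whereas NPC ΔZF1 and NPC WT, PodxlpA and E14, and Grb10pA and E14 overlapped, with n = 2 each. The linker histone site S43 (chr13:23763811-23764659, Hist1h1a) was called in 19 of 20, at 7.82- and 4.49-fold in ESC ΔZF1 against 4.22- and 3.79-fold in ESC WT. Over the 9 histone sites, 88.89% of the possible calls in ESC ΔZF1 Smc3 libraries were made, against 63.49% at the other 63 sites. The share was 100% against 58.33% in rescue NPCs and 59.26% against 22.22% in the other NPC lines. Of all 7642 sites, 86% to 97.4% were called per library in ESC ΔZF1. In rescue NPCs it was 85.4% to 98.9%, and in the other NPC lines 65.7% to 83.8%. Some histone sites had CTCF in NPCs. At least 1 of the 8 rescue NPC CTCF libraries called 5 of the 9, against 10 of the other 63 sites. At least 1 of the 6 other NPC CTCF libraries called 2 of the 9, against 14 of the 63. S18 had CTCF in 3 of the 8 rescue libraries. Per NPC group, at least 1 CTCF library called 78.5% to 97.3% of all 7642 sites.

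Malat1 had the other site called everywhere. At S23 the Smc3 fold enrichment was 6.17 and 5.19 in ESC ΔZF1 against 6.55 and 4.82 in ESC WT, and 11 and 9.11 in NPC ΔZF1 against 14 and 6.99 in NPC WT. It was 4.48 and 7.24 in PodxlpA and 4.77 and 4.82 in Grb10pA, against 7.35 and 6.69 in E14. ΔZF1 and WT overlapped in ESCs and in NPCs, as did PodxlpA and E14, and both Grb10pA values were lower than both E14 values. The fold enrichment in these lists depends on depth, so these values are compared only as ranges.

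By position, sites at both a TSS and a 3′ end were called most often, at 83.33% of the possible calls in rescue NPC Smc3 libraries. The share was 66.67% at sites near a TSS alone, 58.33% near a 3′ end alone, 65% at distal sites with the motif and 41.18% at distal sites without it. Per rescue NPC Smc3 library, 85.4% to 98.9% of all 7642 sites were called. Of the 20 cohesin libraries that had not chosen the sites, 1 or more called 67 of the 72 and 10 or more called 21. The median was 6. S27, S39, S53, S66 and S67 were called in none of the 20. These counts were not made for all 7642 sites.

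Rad21, the subunit that closes the cohesin ring, was not used to choose the sites. At least 1 of the 8 Rad21 libraries called 35 of the 72 sites (48.61%), against 88.15% of the CTCF-occupied sites and 87.8% of all 7642. All 8 called 7 of the 72 (9.72%), against 7.21% and 7.24%, and these were S16, S18, S22, S23, S43, S56 and S69. In ESC ΔZF1, 18.06% and 22.22% of the 72 sites were called (13.3% and 23.2% of all sites) and in ESC WT 20.83% and 41.67% (37.4% and 79.3%). In NPC ΔZF1, 19.44% and 20.83% were called (41.4% and 48.7%) and in NPC WT 18.06% and 27.78% (42.8% and 61%). Both libraries called 12 sites in ESC ΔZF1 (9.47% of all sites), 13 in ESC WT (36%), 13 in NPC ΔZF1 (33%) and 11 in NPC WT (38.8%). The share called was lower at the 72 sites than at the CTCF-occupied sites in 7 of 8 libraries, with a mean difference of −19.98 percentage points (± 15.07, SD, n = 8, from −37.99 to 4.79, two-sided exact sign-flip permutation test, p = 0.0234, smallest possible 0.00781). With the CTCF-occupied sites weighted to the strength of the 72, the mean difference was 0.27 points (exact permutation p = 0.93), with 18.06% and 22.22% of the 72 sites against 6.7% and 10.39% of the weighted sites in ESC ΔZF1, and 20.83% and 41.67% against 18.67% and 45.22% in ESC WT. In NPC ΔZF1 it was 19.44% and 20.83% against 22.48% and 28.8%, and in NPC WT 18.06% and 27.78% against 20.97% and 33.46%. These means joined opposite differences. In the weakest bin, which held S70 and S72, the 72 sites were called more often in every Rad21 library (NPC WT 33.33% and 27.78% against 5.71% and 15.71%). In the strongest bin they were called less often in every library except those of ESC ΔZF1 (NPC WT 16.67% and 27.78% against 47.9% and 66.69%). The strongest bin held 6422 of the CTCF-occupied sites, so strength was matched only coarsely within it. The bins were not tested singly.

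The 3 sites of highest median Rad21 percentile, S22, S59 and S23, lay at or near noncoding RNA genes, and the fourth, S3, was intergenic, with a peak in ESC WT replicate 2 alone (12.5-fold, percentile 94.94). S22 (chr3:96328413-96328975), in the small nuclear RNA gene Gm24830, had Rad21 fold enrichments of 19.5 and 29.1 in ESC ΔZF1 against 22.8 and 33.1 in ESC WT, and of 14.4 and 12.9 in NPC ΔZF1 against 17.8 and 18.8 in NPC WT, a median percentile of 99.68 within a list. Its Smc3 fold enrichment in ESC WT was 5.11 and 5.82. The NPC ΔZF1 values at S22 were below both NPC WT values, whereas those of ESCs overlapped. At S23, past Malat1, Rad21 was enriched 8.00- and 12.7-fold in ESC ΔZF1 against 8.79- and 15.3-fold in ESC WT, and 19- and 15.0-fold in NPC ΔZF1 against 19.2- and 21-fold in NPC WT. S69 (chr11:69073542-69073789), near Snord118 and 296 bp past the 3′ end of Tmem107, had 8 of 8 Rad21 peaks at a median percentile of 93.96 but an Smc3 percentile of 0.822 in ESC WT and 1 other Smc3 peak.

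The site past Lncenc1 had Rad21 mostly in ESCs. S59 (chr13:97499205-97499515) had Rad21 fold enrichments of 14 and 15.9 in ESC ΔZF1 against 16.3 and 22.5 in ESC WT, and in NPCs a peak in WT replicate 2 alone (9.31-fold). Both ESC ΔZF1 values lay below both ESC WT values, with n = 2 each and no test. Its Smc3 peaks in ESC WT were 3.08- and 3.53-fold, and 0 of the 12 other Smc3 libraries called it. A gene with multiple near-identical copies, such as small nuclear RNA and histone genes, can gain or lose reads at the mapping quality filter, and the part of this in the values of S22 and the histone sites was not tested.

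Rad21 was also counted by position. Of the 27 sites near a 3′ end 22 had Rad21 in at least 1 library, as did 87.8% of all 7642 sites. At these 27 sites 46.3% of the possible ESC calls and 40.74% of the possible NPC calls were made. Per library, 13.3% to 79.3% of all 7642 sites were called in ESCs and 41.4% to 61% in NPCs. At the 10 distal sites with a CTCF motif 7.5% of the possible ESC calls and 0% of the possible NPC calls were made. The shares were 12.5% and 18.06% at the 18 sites near a TSS alone, and 17.65% and 7.35% at the 17 distal sites without the motif. These shares compare small sets within the 72 and were not tested.

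Replicated differences between genotypes at the 72 sites could not be shown. The share of the 72 sites with an Smc3 peak was 7.64 points higher in NPC ΔZF1 than in NPC WT (two-sided exact permutation p = 1). The share with a Rad21 peak differed by −11.11 points between ESC ΔZF1 and ESC WT (exact permutation p = 0.667) and by −2.78 points between NPC ΔZF1 and NPC WT (exact permutation p = 1). The Smc3 share differed from that in E14 NPCs by −7.64 points in PodxlpA and −11.81 points in Grb10pA (exact permutation p = 0.667 each), and both share the E14 libraries. With 2 libraries against 2 the smallest possible p is 0.333. With each list cut to an equal number of peaks, 4 of these 5 differences changed sign, the exception being Rad21 in NPCs. In ESC WT, Rad21 replicates 1 and 2 called 20.83% and 41.67% of the sites, a spread of the size of the differences between groups.

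CTCF in NPCs, which the rule did not use, was called at few of the 72 sites. At least 1 library called 12 sites in NPC ΔZF1 (78.5% of all 7642 sites) and 8 in NPC WT (94.9%), and 7 in PodxlpA (96.6%), 12 in Grb10pA (97%) and 10 in E14 (97.3%). No CTCF peak in any of the 22 ESC and NPC libraries lay at 46 of the 72. The mean share was 1.39 points higher in NPC ΔZF1 than in NPC WT (4 against 4 libraries, exact permutation p = 0.771, smallest possible 0.0286), at 4.86 points within replicates 1 and 4, −2.08 points within the shallower replicates 2 and 3, and −1.5 points without ΔZF1 replicate 4. The peak names inside the replicate 4 lists carry the replicate number 2, but 0 peaks of a replicate 4 list had the same start and end as a peak of its replicate 2 list, and they were counted as separate libraries, as labelled. It was 4.05 points higher in the PodxlpA, Grb10pA and E14 lines than in the rescue lines (6 against 8, exact permutation p = 0.183) and 0.12 points higher at equal peak numbers.

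The sites behind these calls differed between the kinds of line. In the PodxlpA, Grb10pA and E14 lines CTCF was called at the 10 sites whose sequences are printed above in 28 of 60 possible cases (46.67%), against 1 of 80 (1.25%) in the rescue NPC lines. At the other 62 sites it was called in 9 of 372 cases (2.42%), against 25 of 496 (5.04%) in the rescue lines. The CTCF-occupied sites were called in 74.64% to 96.79% per library of the PodxlpA, Grb10pA and E14 lines, against 32.1% to 85.77% per library of the rescue lines. The rule required 0 CTCF peaks in the ESC libraries of the same rescue lines, which can favour few calls in their NPCs. The division of the 72 sites by motif and line was noticed in these data and is a description without a test. The background coverage of the CTCF libraries was 0.219 to 0.647 fragments per bp in the PodxlpA, Grb10pA and E14 lines and 0.421 to 2.23 in the rescue NPC lines, and the part of depth was not tested.

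Of the 10 sites, 8 had CTCF in at least 1 library of these lines. S6 (chr6:108441384-108441692, in an intron of Itpr1, a calcium channel gene) was called in 5 of 6 such libraries, at 12.4-fold in PodxlpA replicate 1 and 8.16- and 11.2-fold in Grb10pA, against 8.25- and 15.3-fold in E14. It also had the single rescue call, 5.59-fold in NPC WT replicate 3. S10 (chr6:59498191-59498364), at −71998 bp from the TSS of Gprin3, was called in the same 5 libraries, at 10.9-fold in PodxlpA replicate 1 and 9.32- and 10.7-fold in Grb10pA, against 9.71- and 12.4-fold in E14, and in 0 of 8 rescue NPC libraries. S13 (chr3:126402933-126403180), in an intron of Arsj, an arylsulfatase gene, was also called in 5 and in 0 rescue libraries. PodxlpA replicate 2, the shortest of these lists with 15505 peaks, called none of the 10. S9 and S31 were called in none of the 14 NPC CTCF libraries.

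**Figure D4:**
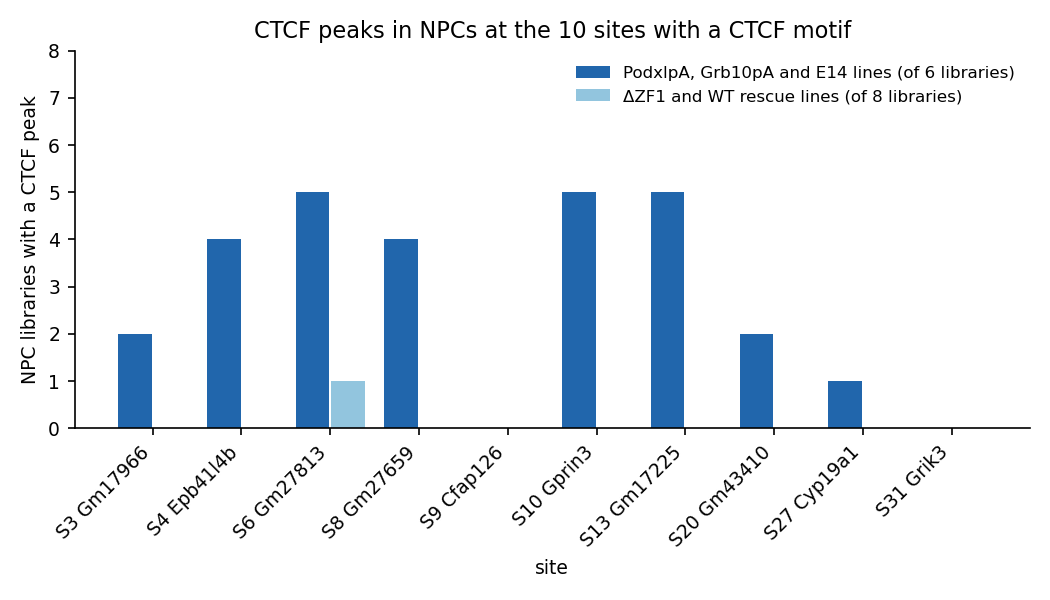
Number of NPC CTCF libraries (vertical axis) with a peak at each of the 10 distal sites with a CTCF motif of at most 1 mismatch (horizontal axis), for the PodxlpA, Grb10pA and E14 lines together (dark bars, of 6 libraries) and the ΔZF1 and WT rescue lines together (light bars, of 8 libraries). S6, S10 and S13 reach 5 libraries, and S6 alone has a light bar, of 1 library.

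Of the 26 CTCF calls in rescue NPC libraries, 21 lay at sites within 1 kb of a TSS. S48 (chr15:64060597-64060753), at −194 bp from the TSS of Fam49b, had 9.03- and 13.1-fold CTCF enrichment in NPC ΔZF1 replicates 1 and 4 against 5.83-fold in NPC WT replicate 1. S61 (chr4:133967173-133967433), at the TSS of Hmgn2, a nucleosome-binding protein, had 5.84- and 7.74-fold in the same ΔZF1 libraries against 5.61- and 4.34-fold in NPC WT replicates 1 and 2. S33 (chr19:42255875-42256177), 247 bp from the TSS of Golga7b, had 3.90- and 4.33-fold in ΔZF1 against 4.56- and 4.10-fold in WT. At each of the 3 sites NPC ΔZF1 replicates 2 and 3 had no peak.

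Motifs of other factors were counted as well. Exact matches on either strand within 100 bp of the summit were counted for 12 strings, none of which is contained in another. The GC box GGGCGG of Klf and Sp factors lay at 16.67% of the 72 sites and 12.99% of the CTCF-occupied sites, the CCAAT box at 18.06% and 20.58%, the ETS string CCGGAAG at 6.94% and 2.35%, the E-box CACGTG at 5.56% and 3.17%, the ZFX string AGGCCT at 4.17% and 8.16% and the TEAD string GGAATG at 4.17% and 10.04%. The Sox string CATTGTT and the AP-1 string TGANTCA each lay at 2.78%, against 1.78% and 4.6%. The Oct4 octamer ATTTGCAT, the Esrrb string CAAGGTCA, the NRF1 motif and the YY1 string AAGATGGCG lay at 0 of 72, which allows a share of up to 4.17% (3 counts of 72), against 0.21% to 1.08% of the CTCF-occupied sites. Split by position, the GC box was less frequent at the 72 sites in both parts. It lay at 25% against 31.63% within 1 kb of a TSS and at 8.33% against 9% further away. A match is a string and not a site of binding. The median GC content of the 201-bp windows was 53.98% against 52.74%, and 9.72% against 7.56% of the windows were over 50% repeat-masked. Within 1 kb of a TSS the median GC content was 58.96% against 59.2%, and further away 51.99% against 52.24%.

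Whether the position of the 72 sites held for cohesin without CTCF in other libraries was examined in the 12 Smc3 libraries that had not chosen them. In each, the peaks were divided by overlap with any of the 8 CTCF lists of rescue ESCs, the 8 of rescue NPCs or the 6 of the PodxlpA, Grb10pA and E14 NPCs, whichever matched the cells, and the peaks without CTCF were 1.88% to 20.52% of a library. The 2 ESC ΔZF1 libraries were thus divided by the same 8 lists that chose the 72 sites. They called 52 and 44 of these 72. Peaks without CTCF lay within 1 kb of a TSS more often than peaks with CTCF by 9.93 points on average (± 18.61, SD, n = 12, from −8.86 to 42.13, higher in 7 and lower in 5, two-sided exact sign-flip permutation test, p = 0.107). The largest differences were in replicate 2 of the lines without a degron, with 65.11% of peaks without CTCF against 22.99% of peaks with CTCF in PodxlpA, 54.81% against 20.44% in Grb10pA and 57.32% against 19.87% in E14. In replicate 1 of the same lines the shares were 13.74% against 12.93%, 16.18% against 13.83% and 11.66% against 13.64%. In ESC ΔZF1 they were 25.35% and 41.32% without CTCF against 16.37% and 22.26% with CTCF, and in all 4 rescue NPC libraries the share was lower without CTCF.

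The share within 1 kb of a gene 3′ end was higher without CTCF in 12 of 12 libraries, by 4.45 points on average (± 3.36, SD, from 0.01 to 12.22, exact sign-flip permutation p = 0.000488). This measure was added after the values at the 72 sites had been seen, and the libraries call some of the same sites. The ESC ΔZF1 libraries were also divided by the CTCF lists that chose the 72 sites, so they are no separate check. In the 6 libraries of the PodxlpA, Grb10pA and E14 lines alone the difference was 4.97 points (exact sign-flip permutation p = 0.0312, the smallest for 6 libraries). In ESC ΔZF1 the shares were 17.36% and 12.14% without CTCF against 5.14% and 5.7% with CTCF. In NPC ΔZF1 they were 5.44% and 6.75% against 5.42% and 5.56%, and in NPC WT 5.8% and 8.73% against 5.36% and 5.5%. In PodxlpA they were 10.43% and 8.16% against 4.51% and 5.1%, in Grb10pA 10.37% and 10% against 4.5% and 5.09%, and in E14 8.03% and 11.91% against 4.61% and 5.24%. Among peaks over 1 kb from a TSS the difference was 2.16 points (exact permutation p = 0.00781).

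**Figure D5:**
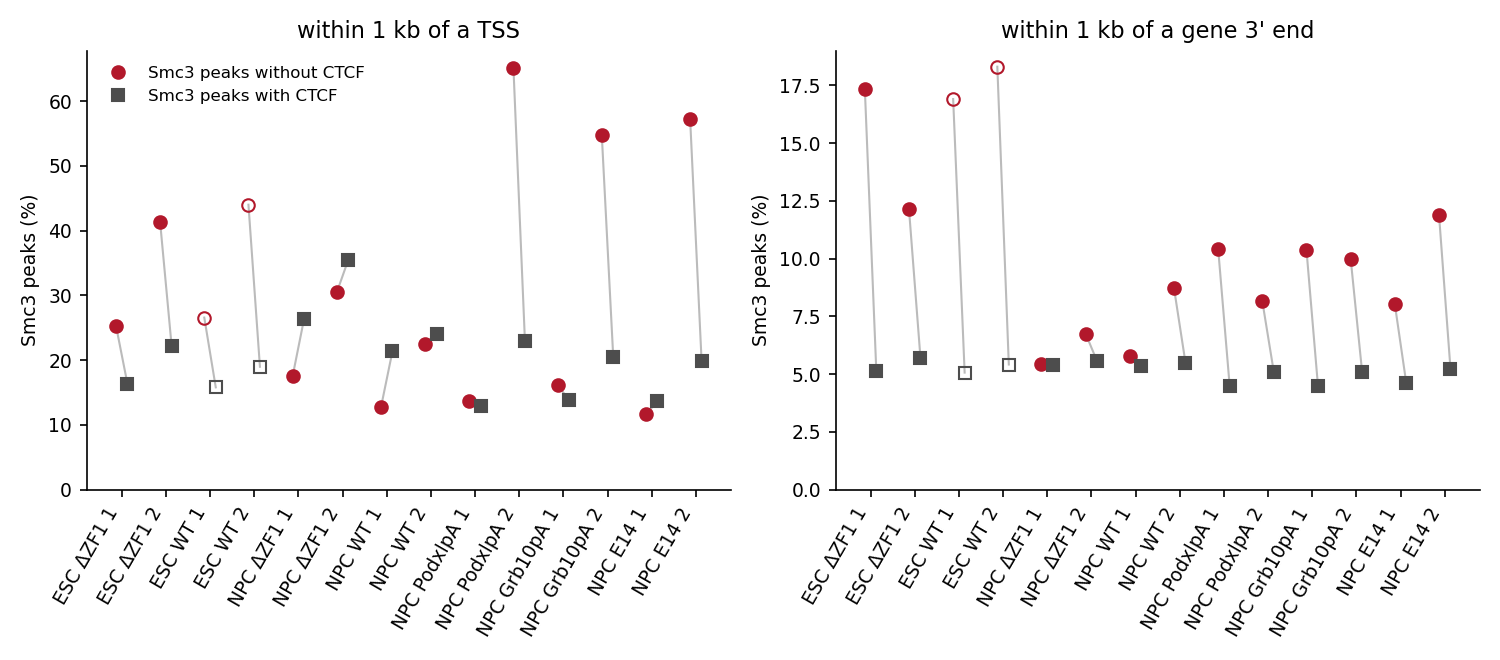
Share of Smc3 peaks (vertical axes, %) within 1 kb of a TSS (left) or of a gene 3′ end (right) in each library (horizontal axis, with the replicate number), for peaks without CTCF (circles) and with CTCF (squares) in the CTCF lists of the same kind of line. Open symbols are the ESC WT libraries that chose the 72 sites and enter no test. At 3′ ends each circle lies above its square, by 0.01 to 12.22 points in the 12 libraries tested, and at TSSs the widest gaps are in replicate 2 of PodxlpA, Grb10pA and E14.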

How the data were processed

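ChIP-seq for CTCF, Smc3 and Rad21 gave 44 peak lists from 54 samples. Libraries of the 10 inputs were not analysed here. Per the study's methods, the authors mapped reads to mm10 with Bowtie2, dropped alignments of mapping quality under 30, duplicates (Picard) and blacklisted regions, and called peaks on each sample with MACS2 at q 0.01. Versions of these tools and the input paired with each sample are not given in the sources used here. In the deposited lists every peak has coordinates, a summit offset in bp, an integer display score, a fold enrichment (as defined above) and a −log10 p-value and q-value. The authors' peak caller made these per library, with no scaling between libraries.

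Overlapping peaks (at least 1 bp) of the Smc3 ESC WT lists were merged into sites. The summit of the list with the higher percentile of fold enrichment was placed on GENCODE vM21 genes. No peak ended beyond a chromosome of the GRCm38 reference. Peaks with −log10 p up to 60 gave whole numbers of fragments (within 0.002 in −log10 p) in 99.68% to 100% of cases per library, and the lowest background rate served as depth. Shares of sites were compared over libraries by exact two-sided sign-flip or label permutation tests in Python 3.11.15 with numpy 2.4.6, pandas 2.3.3, scipy 1.17.1 and pysam 0.24.0. On simulated data 8 of 8 checks were met. Strength was matched in 4 bins of the percentile of fold enrichment, set by the 72 sites.

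Sites were named by fixed rules: the 10 of highest Smc3 percentile, the 10 highest over 1 kb from a TSS, the 10 called in the most other cohesin libraries, those within 10 kb of a listed gene, those within 12 kb of each other, the 5 with the most NPC CTCF peaks and the 3 of lowest percentile. Others were named after their values were seen. The sites, gene lists and tests were chosen with earlier results of these data known.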

Additional observations from a re-analysis of the deposited data

Results flagged for a closer look

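CTCF was called at 9.72% of the 72 sites in replicate 1 of NPC WT, against 2.78%, 1.39% and 1.39% in replicates 2, 3 and 4, so that this library stood apart from the others of its group. At the 95% critical value of Dixon's test used here, chance alone gives such a gap in about 1 in 20 groups. It was also the longest list of its group, with 30555 peaks against 15052 to 24908, and the part of list length in this share was not tested.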

How the results depend on the processing

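The number of sites depended on the lists. It was 162 when a CTCF peak in 1 of 8 libraries was tolerated, 46 without a CTCF peak in any of 22 lists and 43 at a −log10 q of at least 5, and leaving out replicates gave 74 to 538, with 284 without CTCF replicate 1, 284 without Smc3 WT replicate 1 and 538 without Smc3 WT replicate 2. The TSS share was 33.95% with 1 CTCF library tolerated and 24.3% to 51.35% when replicates were left out. The motif share was 13.89% with 1 mismatch fewer. The Smc3 difference stayed between −47.77 and −24.99 points in all settings and between −40.02 and −36.57 without single libraries. The Rad21 difference was 0.27 points at matched strength and −23.52 to −17.4 without single libraries (exact permutation p 0.0156 to 0.0469). The TSS difference was 7.01 to 11.64 points without single libraries, 19.19 in the lines without a degron and 0.67 in the rescue lines, and the 3′ end difference 3.74 to 4.85, 4.97 and 3.92. Without the mitochondrial sites 70 sites remained, with a TSS share of 48.57%, an Smc3 difference of −38.47 and a Rad21 difference of −21.45 points. The settings by kind of line, the mitochondrial setting and those of the 3′ end difference were chosen after seeing the data.

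With equal peak numbers the differences at the 72 sites were −13.89 points (Smc3, NPC ΔZF1 minus WT), 7.64 (Rad21, ESC ΔZF1 minus WT), 7.64 (Smc3, PodxlpA minus E14) and 3.47 (Smc3, Grb10pA minus E14), each with its sign turned. The cause was not tested. Without single libraries they ran from −7.64 to 22.92, −21.53 to −0.69, −19.44 to 4.17 and −22.92 to −0.69 in the same order, from −7.64 to 2.08 for Rad21 in NPCs, and from −1.5 to 3.36 for CTCF in NPCs, which was −2.08 in replicates 2 and 3 alone. The difference between lines without a degron and rescue lines ran from 2.99 to 5.76.

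The replicate numbers were not taken to pair the libraries, since over the 72 sites deviations from the group means correlated between −0.05 and 0.103 for CTCF in NPCs and between −0.019 and 0.139 elsewhere. Libraries of 1 number did share other features, since the TSS share of Smc3 peaks without CTCF was 11.66% to 16.18% in replicate 1 of PodxlpA, Grb10pA and E14 and 54.81% to 65.11% in replicate 2. With the replicate number as a block the values were the same, 1.39 points for CTCF (exact permutation p = 1), 7.64 (p = 1), −11.11 (p = 0.5), −2.78 (p = 1), −7.64 (p = 0.5) and −11.81 (p = 0.5) in the order of the report. Lists of 1306 to 10415 Rad21 peaks limit how many weak sites could be called, and a site without a CTCF peak at these depths is not shown to lack CTCF.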
